A study of Bos taurus with 38 samples.

Results

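NAMPT (ENSBTAG00000015509) encodes nicotinamide phosphoribosyltransferase, the rate-limiting enzyme of the salvage route to NAD. It is described here as 1 gene of the 27607 in the count table, in Longissimus dorsi (LD) muscle biopsies of 38 newborn beef calves. The gene was chosen by its levels in these same calves. Its levels by treatment group are therefore given as a description, with no test.

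The dams were Angus-cross cows, and the calves were grouped by the trimester in which their dams received supranutritional Se-yeast. Cows of the TR1, TR2 and TR3 groups were given 3 boluses a week for 13 weeks, a dose of 105 mg Se per week, in the trimester that the group is named for, and control cows (CTR) were given none. All cows, controls included, had a mineral supplement with 120 mg/kg Se from Na selenite. Muscle was taken by needle biopsy between 12 and 48 h after birth, under local anaesthetic that contained epinephrine. There were 10 CTR, 9 TR1, 10 TR2 and 9 TR3 calves (14 females and 24 males by the sample labels, from dams 5 to 9 years old). The labels give 4 CTR females, more than the study's description of that group, and the labels were used for sex throughout. Each library is a separate calf, and each holds RNA of all the cells in the biopsy, so that fewer cells of a type and less RNA per cell cannot be told apart.

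NAD carries electrons in glycolysis, fatty acid oxidation and the respiratory chain, and is used up by sirtuins, poly(ADP-ribose) polymerases (PARPs) and NAD hydrolases. Nicotinamide released by these enzymes is turned back into nicotinamide mononucleotide (NMN) by NAMPT, and a further enzyme joins NMN to ATP to complete NAD. Skeletal muscle also makes NMN from nicotinamide riboside through the muscle kinase NMRK2, while tryptophan feeds a longer de novo route. NAMPT transcription is known to follow the circadian clock, energy state and inflammatory signals.

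Total counts per calf ranged from 12921223 to 17471666, and between 728 and 11929 of them were counted on NAMPT. In RefSeq's annotation of ARS-UCD2.0, a later build than that of the counts, 0 other annotated genes overlap NAMPT. Levels below, apart from summed marker levels, are CPM values (counts relative to the library total), scaled with the trimmed mean of M values (TMM). The TMM factors ranged from 0.887 to 1.35. Of the 12 markers of skeletal muscle fibres listed, 10 were paired with a gene ID and none was at 0 in any calf. Their summed level ranged from 63904 to 174703 CPM. This and the other summed marker levels below are CPM without TMM scaling. Scaling would lower them most in A2052, the calf with the highest factor.

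NAMPT was detected in every calf and ranged from 47.8 to 635 CPM, a 13.3-fold range. In CTR calves the lowest value was 47.8, the median 72.5 and the highest 121 CPM. In TR1 calves these were 50.1, 83.7 and 628 CPM. In TR2 calves they were 62.3, 116 and 635 CPM, and in TR3 calves 56.3, 86.9 and 130 CPM. Values of every group overlapped those of every other group. The groups differed mostly at the upper end, where TR1 and TR2 each held values that no CTR or TR3 calf reached.

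**Figure D1:**
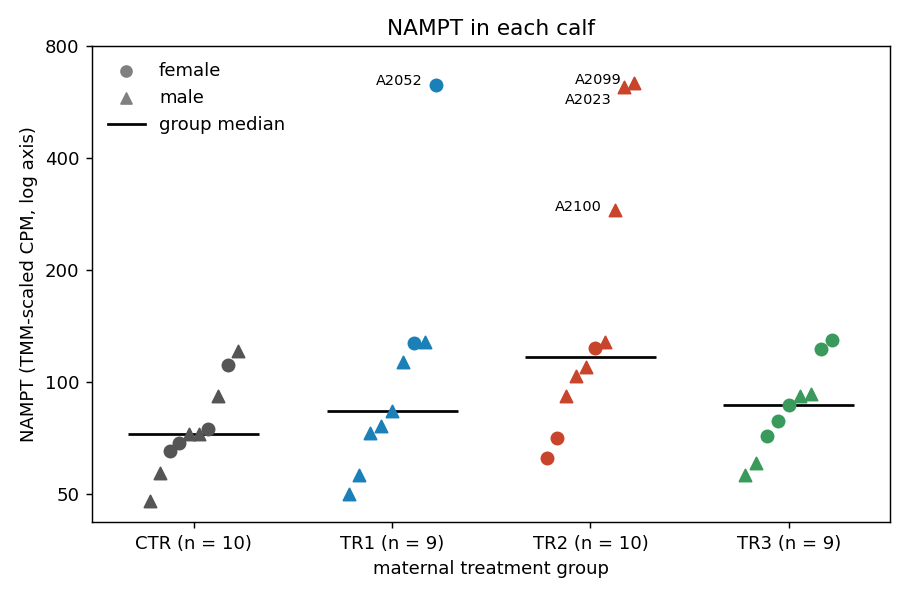
NAMPT level (TMM-scaled CPM, log axis) of each calf by maternal treatment group, with circles for females, triangles for males and a bar for the group median. A TR1 female and 3 TR2 males sit between 289 and 635 CPM, and the other 34 calves between 47.8 and 130 CPM.

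Those values belonged to 4 calves. The TR1 calf A2052, a female, had 628 CPM, and the TR2 calves A2099, A2023 and A2100, all males, had 635, 619 and 289 CPM. The next calf down, from TR3, had 130 CPM, which left a gap of 1.15 on the log2 scale. A gap of almost the same size, 1.10, lay within the 4 calves, between 289 and 619 CPM. A2052 also had the highest TMM factor of all libraries (1.35), and without TMM scaling its value was 846 CPM.

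The order of the group means was TR2, TR1, TR3 and CTR. The mean was 223 ± 222 CPM in TR2 (SD, n = 10), 148 ± 182 in TR1 (SD, n = 9), 87.9 ± 25.3 in TR3 (SD, n = 9) and 78.2 ± 23.1 in CTR (SD, n = 10). No neighbours in that order differed beyond their spread. TR2 exceeded TR1 by 74.9 CPM against a larger SD of 222, TR1 exceeded TR3 by 60.5 CPM against 182, and TR3 exceeded CTR by 9.72 CPM against 25.3. By medians TR3 stood above TR1. Above the highest CTR calf lay 3 of 9 TR1, 5 of 10 TR2 and 2 of 9 TR3 calves, and above the CTR median 7, 8 and 6.

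The spread of NAMPT differed between the groups more than its median did. The SD of log2 CPM was 0.41 for CTR and for TR3 calves, but 1.08 for TR1 and 1.21 for TR2 calves. Among the SDs of all 12964 genes tested, they stood at percentile 66.4 (CTR), 67.0 (TR3), 96.3 (TR1) and 97.4 (TR2), and the median SD over all genes was 0.32, 0.31, 0.38 and 0.40 in the same order. Without the 4 calves, the mean was 88.4 ± 30.8 CPM in TR1 (SD, n = 8) and 98.5 ± 25.1 in TR2 (SD, n = 7), with medians of 79.8 and 104 CPM, so that all groups then had SDs of the same order.

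In the fit with dam age, sex and group (edgeR), the log2 fold change of NAMPT was 0.70 (SE 0.41) in TR1 vs. CTR, 1.64 (SE 0.41) in TR2 vs. CTR and -0.09 (SE 0.42) in TR3 vs. CTR. The TR2 value was the 19th highest of all genes, and the TR1 value the 168th. The 3 comparisons share the CTR calves. Leaving out the 4 calves, a choice made after seeing the data, brought these values to 0.20, 0.36 and 0.06. Leaving out A2052 alone brought the TR1 value to 0.12, whereas the TR2 value was between 1.20, without A2099, and 1.79 when any single calf was left out. Over all genes tested, edgeR called 0 genes at an adjusted p of 0.05 in all 3 comparisons with CTR (0% called), and 331, 1081 and 175 genes had an unadjusted p under 0.05. These are 2.55%, 8.34% and 1.35% of the genes tested. DESeq2 called 0, 1 and 0 genes, with 367, 1175 and 197 at an unadjusted p under 0.05.

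Sex and dam age could be tested, since they played no part in the choice of the gene. NAMPT ranged from 62.3 to 628 CPM in the 14 females (median 82.7) and from 47.8 to 635 CPM in the 24 males (median 91.6). The fitted log2 fold change of female vs. male was 0.37 (SE 0.31), and edgeR's quasi-likelihood test gave an unadjusted p of 0.243 and an adjusted p of 0.901. The estimate rests on A2052, 1 of only 2 TR1 females, because without it the value was -0.13. Between sexes 0.0309% of the genes tested were called (4 genes by edgeR, 3 by DESeq2), and NAMPT was not among them. Per year of dam age the log2 fold change was -0.21 (SE 0.12, unadjusted p = 0.0827 and adjusted p = 0.993 by edgeR). It was -0.08 without A2052 and also without all 4 calves. The 4 calves had dams of 5 or 8 years. For dam age 0% of genes were called (0 genes by edgeR and by DESeq2, with 436 and 471 at an unadjusted p under 0.05).

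Library properties were compared with NAMPT across the 38 calves, with each group's mean removed. The share of counts taken by the 10 most abundant genes and the TMM factor are made from the levels of other genes, so these are given as a description. NAMPT was lower where that share was larger (r = -0.53, rho = -0.36). The share was 16.3% in A2052, the lowest of all calves, and 19.9% in A2023, 21.1% in A2099 and 21.3% in A2100, whereas it lay between 21.2% and 25.9% in CTR. The TR1 calves A2040 and A2032 also had low shares, 19.3% and 19.4%, with NAMPT at 50.1 and 83.7 CPM. Leaving out the 2 calves farthest from the median share gave r = -0.45, and leaving out the 4 calves gave r = -0.12, so that the relation rests on them. The TMM factor gave r = 0.34 and rho = 0.10, with r = 0.10 without the 2 calves farthest from its median and -0.066 without the 4 calves. Total counts and the number in the calf's name were tested with 100000 two-sided permutations, adjusted over all 4 relations. Total counts gave r = -0.14 (permutation p = 0.385, adjusted p = 0.514; rho = -0.10, permutation p = 0.561), and r = -0.27 without the 2 calves farthest from the median. The number in the calf's name gave r = 0.0079 (permutation p = 0.962, adjusted p = 0.962; rho = 0.15, permutation p = 0.379), and r = 0.16 without the 2 farthest. The labels give no extraction or sequencing batch, so no value within batches could be given.

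Genes that varied with NAMPT among calves of the same group were ranked by the mean of the 4 within-group Pearson r of log2 CPM. This is a description over 38 calves that share their libraries and scaling, and no p is attached to it. Over the other 12963 genes tested the mean r had a median of -0.0084, with 32 genes at 0.7 or above and 29 at -0.7 or below. An r of at least 0.5 in each of the 4 groups was found in 51 genes (0.393%), and of -0.5 or below in 50 (0.386%). The groups differed in how many genes followed NAMPT. An r of 0.7 or more in size was found in 3.53% of genes (CTR), 24.0% (TR1), 19.4% (TR2) and 6.61% (TR3), and the 2 high shares belong to the groups with the 4 calves. The highest mean r of any gene, 0.86, belonged to ENSBTAG00000047249, which has no symbol in the sources used.

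Among genes with a symbol and a mean of at least 1 CPM, the 12 with the highest mean r included regulators of transcription and DNA, enzymes of protein processing, and genes of mitochondria and transport. MAX, the partner of MYC in DNA binding, had an r of 0.70 (CTR), 0.95 (TR1), 0.85 (TR2) and 0.71 (TR3). Its mean r was 0.80, and 0.75 without the 4 calves, the smallest drop of the 12. TOP1, DNA topoisomerase I, had a mean r of 0.77, but 0.34 without the 4 calves, where its r was near 0 in TR1 and TR2. TOP1 was at 50.9 to 61.9 CPM in the 4 calves, and its CTR median was 27.7 CPM.

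OTUD6B, a deubiquitinase, led the genes with a symbol, with an r of 0.77, 0.82, 0.88 and 0.83 in CTR, TR1, TR2 and TR3. FURIN, a protease that activates precursor proteins in the secretory pathway, had a mean r of 0.79, and 0.68 without the 4 calves. FURIN was lowest at 31.6 CPM, had a median of 46.4 and was highest at 53.4 CPM in CTR, and its values were 153 CPM in A2052, 133 in A2099, 92.3 in A2100 and 70.7 in A2023. Thus 3 of the 4 calves stood above every other calf for FURIN, while the TR3 maximum of 71.1 CPM was just above A2023. MCFD2, which helps to carry cargo from the endoplasmic reticulum, HEXA, a subunit of lysosomal hexosaminidase, OCRL, an inositol lipid phosphatase, and MPP6, a membrane scaffold protein, had mean r of 0.73, 0.74, 0.71 and 0.77. Without the 4 calves these were 0.44, 0.58, 0.64 and 0.58, and MCFD2 then had an r of -0.10 in TR2.

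UCP3, a mitochondrial uncoupling protein of muscle, had an r of 0.73 (CTR), 0.86 (TR1), 0.57 (TR2) and 0.78 (TR3). In the 4 calves its order was not that of NAMPT. A2100, the lowest of the 4 in NAMPT, had the highest UCP3 (273 CPM), whereas A2099, A2052 and A2023 had 128, 126 and 100 CPM. Calves outside the 4 exceeded A2099, A2052 and A2023, with UCP3 at 148 CPM in A2074 (TR3) and 144 CPM in A2090 (TR2). FKBP5, a co-chaperone of the glucocorticoid receptor that glucocorticoids induce, had an r of 0.72, 0.76, 0.91 and 0.47. FKBP5 lay between 41.3 and 220 CPM in CTR (median 82.1), and was 770, 630, 461 and 430 CPM in A2099, A2052, A2023 and A2100, above all other calves. SLC7A8, an amino acid transporter, had a mean r of 0.73 (0.46 without the 4 calves) and reached 720 CPM in A2052, against 38.7 CPM at most in CTR. CBR3, a carbonyl reductase, had a mean r of 0.72 (0.67 without the 4 calves).

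**Figure D2:**
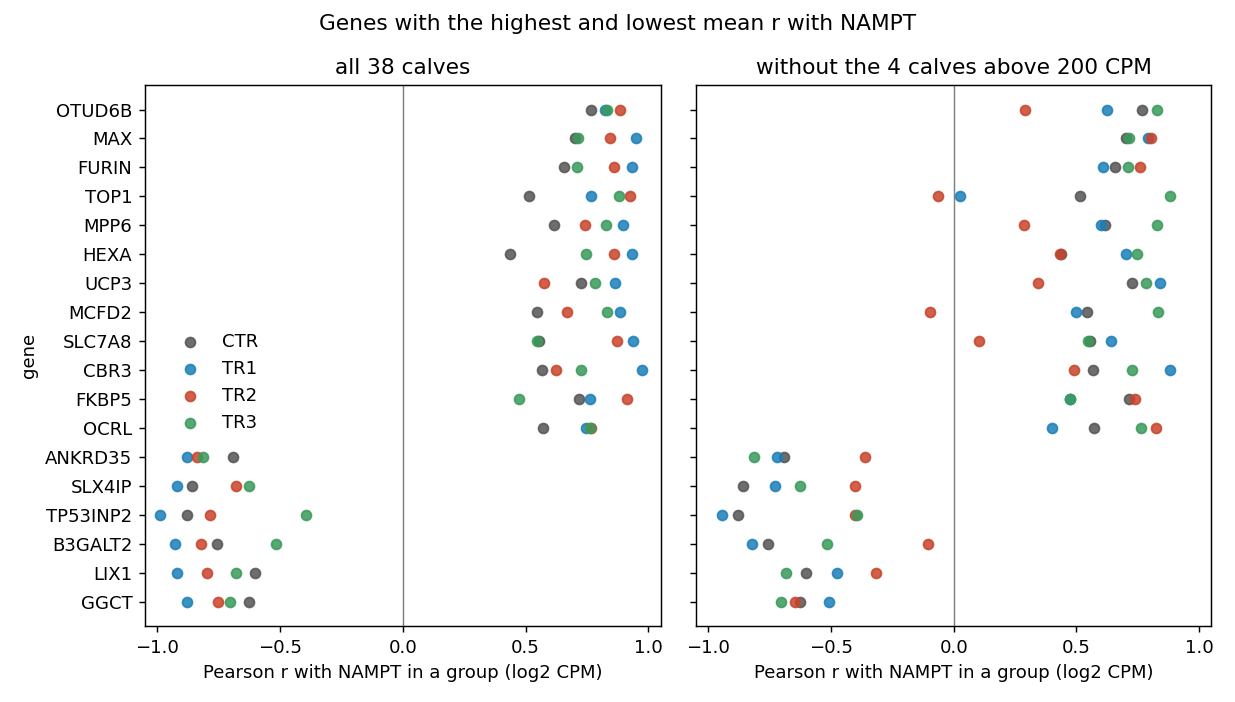
Pearson r with NAMPT (log2 CPM) in each of the 4 groups for the 12 genes with the highest and the 6 with the lowest mean r, over all 38 calves (left) and without the 4 calves above 200 CPM of NAMPT (right). Points of TR1 and TR2 lie nearer 0 on the right for most genes, as for TOP1, whose mean r went from 0.77 to 0.34.

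The 6 genes with the lowest mean r were ANKRD35 (-0.81), SLX4IP (-0.77), TP53INP2 (-0.76), B3GALT2 (-0.75), LIX1 (-0.75) and GGCT (-0.74). ANKRD35 was between 5.23 and 19.0 CPM in CTR (median 8.97), and was 0.948 CPM in A2023, 2.48 in A2052, 3.48 in A2100 and 4.76 in A2099, all below the lowest of the other calves. TP53INP2, which takes part in autophagy in muscle, had an r of -0.88 (CTR), -0.99 (TR1), -0.79 (TR2) and -0.40 (TR3). GGCT, an enzyme of glutathione turnover, was at 0.367 to 0.790 CPM in the 4 calves, and between 0.985 and 5.12 CPM in CTR. Without the 4 calves the mean r of these 6 genes lay between -0.52 (LIX1) and -0.65 (TP53INP2).

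**Figure D3:**
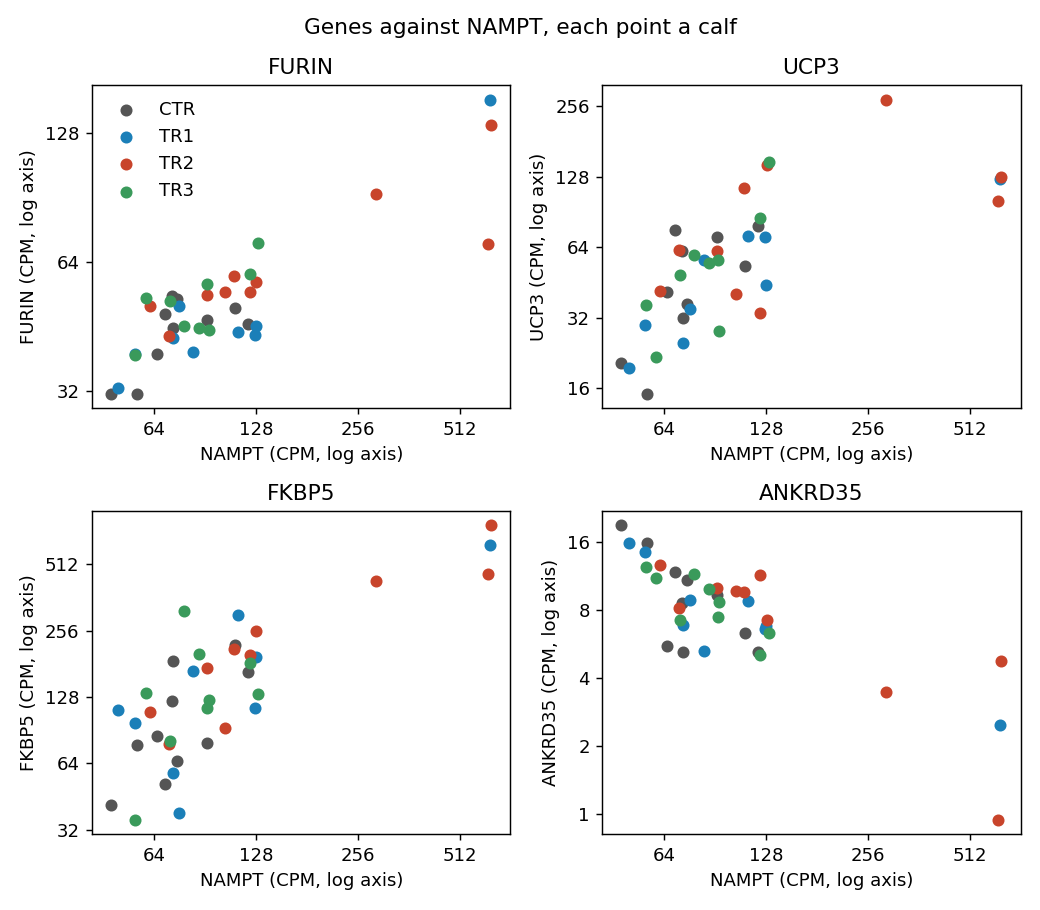
FURIN, UCP3, FKBP5 and ANKRD35 against NAMPT (TMM-scaled CPM, both axes log), with a point for each calf coloured by group. The 4 calves above 200 CPM of NAMPT lie apart on the right, and A2100, at 289 CPM of NAMPT, has the highest UCP3 (273 CPM).

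The other genes of NAD metabolism were taken from a list of biosynthesis, consumption and precursor handling. Only genes that the study's tables name could be paired with an ID. Those tables include its lists of genes called different from CTR in these calves, so that the selection is not independent of the comparisons below. Counts of NAD genes against CTR are therefore a description. Of 18 biosynthesis genes listed besides NAMPT, 5 were paired, of 28 consumption genes 7, and of 10 handling genes 3. The rest were not analysed here. None of the 15 genes other than NAMPT was called at an adjusted p of 0.05 in any comparison, by edgeR or DESeq2. With edgeR, 5 of 15 in TR1, 5 in TR2 and 1 in TR3 vs. CTR had an unadjusted p under 0.05, and with DESeq2 4, 5 and 1. Over all genes tested the shares with edgeR were 2.55%, 8.34% and 1.35%.

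NMNAT2, which joins NMN to ATP to form NAD, had an r with NAMPT of 0.63 (CTR), -0.54 (TR1), -0.45 (TR2) and 0.11 (TR3). It was between 1.12 and 4.57 CPM in CTR (median 2.41) and between 0.421 and 3.38 CPM in TR1 (median 1.66), with the lowest value in A2052. The log2 fold change was -0.66 (SE 0.28) in TR1 vs. CTR, with an adjusted p of 1.00 by edgeR. Of 38 fits that each left out a calf, and so share nearly all calves, 36 kept an unadjusted p under 0.05. Without the 4 calves the log2 fold change was -0.52 (edgeR unadjusted p = 0.0585), the r in TR1 was 0.15 and the mean r 0.11. NMRK2, the kinase of the riboside route in muscle, had an r with NAMPT of 0.24 (CTR), -0.76 (TR1), -0.76 (TR2) and 0.05 (TR3). In A2052 NMRK2 was 54.9 CPM, against a TR1 median of 2027 CPM. In A2023, A2099 and A2100 it was 435, 529 and 744 CPM, against a TR2 median of 1396 CPM. Calves with lower NAMPT also had low NMRK2. The lowest TR2 value, 424 CPM, was in A2090 (NAMPT 128 CPM), and the TR3 calf A2033 (NAMPT 60.6 CPM) had 493 CPM. The mean r of NMRK2 was -0.01 without the 4 calves. Its log2 fold changes of -0.00, -0.26 and 0.10 were all smaller than their SE, as were those without the 4 calves (0.16, 0.07 and 0.04).

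In the de novo route from tryptophan, IDO1, which opens the ring of tryptophan, had the largest fitted difference. IDO1 was at 0 CPM in at least 1 calf of every group, had medians of 4.13 CPM (CTR), 2.86 (TR1), 0.393 (TR2) and 0.957 (TR3), and reached 95.8 CPM in the CTR calf A2034. The log2 fold change was -4.40 (SE 1.14) in TR2 vs. CTR, with an adjusted p of 0.497 by edgeR and 0.152 by DESeq2. It was -2.52 (SE 1.04) in TR1 and -1.30 (SE 1.00) in TR3. Without A2034 these became -3.34, -1.41 and -0.28. Its r with NAMPT differed in sign between groups, at -0.19 (CTR), -0.26 (TR1), 0.07 (TR2) and 0.45 (TR3). QPRT, which uses quinolinate, and AFMID, which acts on formylkynurenine, had mean r of -0.37 and -0.10 (0.0044 and -0.15 without the 4 calves) and no unadjusted p under 0.05.

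Among the genes listed for NAD consumption, ART3, placed there by its family (ADP-ribosyltransferases) and not by measured NAD use, followed NAMPT most closely. Its r was 0.27 (CTR), 0.86 (TR1), 0.95 (TR2) and 0.49 (TR3), and the mean of 0.64 became 0.52 without the 4 calves. ART3 was 625, 515, 481 and 307 CPM in A2099, A2023, A2052 and A2100, against a range of 69.4 to 199 CPM in CTR. In TR2 vs. CTR its log2 fold change was 0.80 (SE 0.30), with an adjusted p of 0.545 by edgeR, and 0.12 without the 4 calves. PARP3, which takes part in DNA repair, had an r of -0.60 (CTR), 0.88 (TR1), 0.64 (TR2) and -0.48 (TR3). It was 9.01 CPM in A2052 and 5.53 in A2023, but 1.59 in A2099 and 1.41 in A2100. CTR calves lay between 0.685 and 1.29 CPM, and the TR1 calf A2047, outside the 4 calves, had 4.62 CPM. The log2 fold change of PARP3 was 1.03 (SE 0.36) in TR1 and 0.79 (SE 0.34) in TR2 vs. CTR, and 0.82 and 0.35 without the 4 calves.

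SARM1, an NAD hydrolase known from axon degeneration, had log2 fold changes of 0.96 (SE 0.35), 0.68 (SE 0.34) and 0.78 (SE 0.35) in TR1, TR2 and TR3 vs. CTR, none of which passed the adjusted threshold. It was 0.143 to 1.02 CPM in CTR (median 0.473). Its mean r with NAMPT was -0.19, and without the 4 calves its log2 fold changes were 0.96, 0.90 and 0.78. The TR2 value was 0.42 without the TR2 calf A2084, and 11 of 38 fits that left out a calf had an unadjusted p under 0.05 there. These levels are low, so a few reads weigh in each calf. The mitochondrial sirtuin SIRT4 had a mean r of -0.34, PARP12 0.11, PARP14 -0.19 and ART1 -0.16. PARP14 had a log2 fold change of -0.73 (SE 0.32) in TR2 vs. CTR, which was -0.49 without the CTR calf A2034.

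Of the handling genes, SLC29A1, a nucleoside transporter of the cell membrane, had a mean r of 0.53, and 0.15 without the 4 calves. SLC29A1 was 482 CPM in A2052, against a CTR median of 113 CPM and a CTR maximum of 130 CPM, and its log2 fold change in TR1 vs. CTR went from 0.49 (SE 0.19) to 0.15 when A2052 was left out. NUDT13, a nudix hydrolase of mitochondria that acts on NADH, had a mean r of -0.61 and a log2 fold change of -0.43 (SE 0.20) in TR2 vs. CTR. These were -0.30 and -0.19 without the 4 calves. NT5E, which dephosphorylates nucleotides outside the cell, had a mean r of -0.18. The median of the mean r was -0.10 for biosynthesis, -0.16 for consumption and -0.18 for handling, beside -0.0084 over all genes. Without the 4 calves these were 0.0044, -0.0055 and -0.27.

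**Figure D4:**
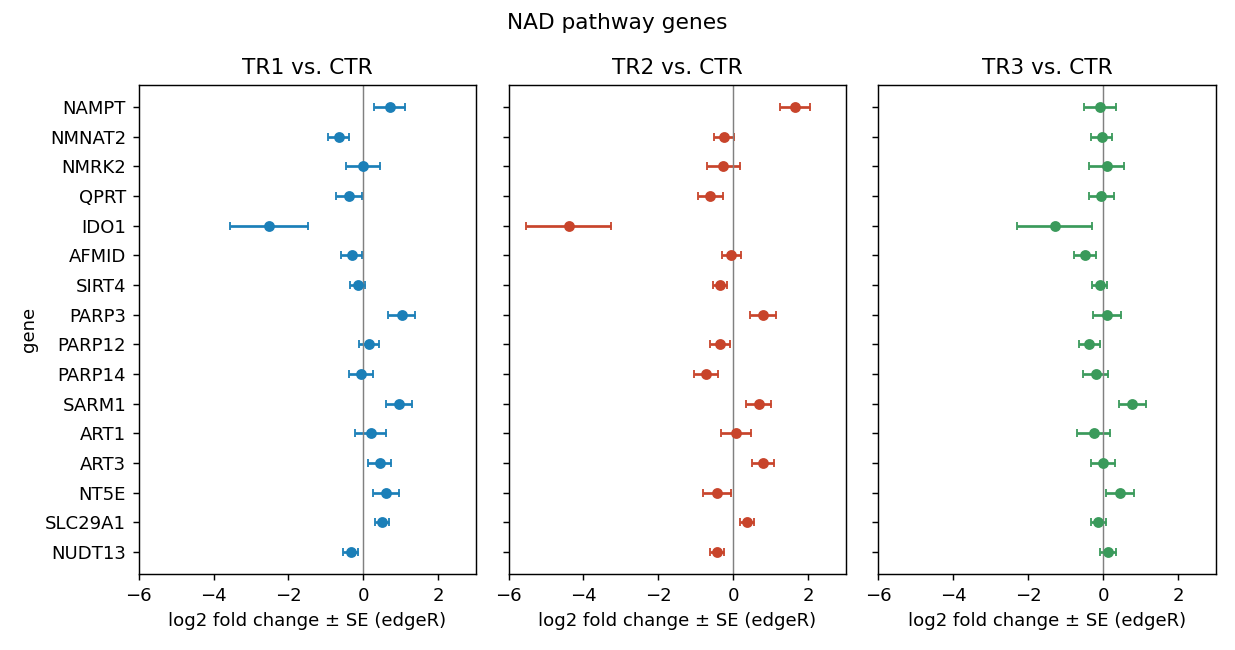
Log2 fold change ± SE (edgeR, all 38 calves) of NAMPT and the 15 other NAD genes paired with an ID, in TR1, TR2 and TR3 vs. CTR. NAMPT is at 0.70, 1.64 and -0.09, and IDO1 has the widest error bars, at -2.52, -4.40 and -1.30.

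Genes of glucocorticoid response and fasting had the highest median of the mean r with NAMPT of the 13 lists, though not in CTR or TR3. In CTR the medians of r were higher for muscle fibre markers (0.45), precursor handling (0.40), AMPK and energy sensing (0.31), adipocyte markers (0.30) and fibroblast markers (0.25). In TR3 they were higher for muscle fibre and leukocyte markers (both 0.46). All medians here are over members that the study's tables name. Those tables include its lists of genes called different from CTR in these same calves. Membership was thus set partly by the differences described here, so the counts and fold changes against CTR cannot show a shift of the list beyond all genes. For r, too, all genes are an uneven comparison. Among 2581 genes with a symbol and at least 1 CPM, 35.1% (TR1) and 29.5% (TR2) had an r of 0.7 or more in size. Over all genes these shares were 24.0% and 19.4%. The values of r for the list are therefore a description as well. For 26 of 29 genes with an ID, the median of the mean r with NAMPT was 0.37, and 13 of 26 were positive in all 4 groups, against 11.2% of all genes. The median r was 0.14 (CTR), 0.76 (TR1), 0.57 (TR2) and 0.17 (TR3), and the median of the mean r was 0.16 without the 4 calves, against -0.0035 over all genes. Besides UCP3 and FKBP5, the gene nearest to NAMPT was GLUL, glutamine synthetase, with a mean r of 0.63, or 0.25 without the 4 calves. GLUL was 145 to 552 CPM in CTR (median 316), and reached 4552 CPM in A2052, 4360 in A2099 and 970 in A2100, with A2023 between the last 2 values. NR3C1, the glucocorticoid receptor itself, singled out after its values were seen, had a mean r of -0.16. Against CTR, 24 of the 26 were higher and 2 lower in TR2 (median log2 fold change 0.81), 25 and 1 in TR1 (median 0.63), and 7 and 19 in TR3 (median -0.23). Over all genes these medians were 0.0075, 0.0016 and -0.0093. None of the 26 was called at an adjusted p of 0.05, and 10 in TR2 and 2 in TR1 had an unadjusted p under 0.05, beside 8.34% and 2.55% of all genes.

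The remaining pathway lists lay nearer to the median of all genes. Of 8 circadian clock genes the median of the mean r was 0.11, with RORA at 0.46, PER2 at 0.29 and DBP at -0.24. HLF, a clock output factor, had an r of 0.96 in CTR but -0.35, -0.28 and 0.06 in TR1, TR2 and TR3, and was singled out after its values were seen. Of 13 cytokine and NF-kB genes the median was 0.12, with haptoglobin (HP) at 0.43, the NF-kB inhibitor NFKBIA at 0.33 and CISH, a feedback inhibitor of cytokine signalling, at 0.21. HP was 7.21, 4.35 and 4.10 CPM in A2099, A2023 and A2100, and 1.95 CPM in A2052, against 1.08 CPM at most in CTR. Of 9 genes of AMPK and energy sensing the median was -0.06, with PPARGC1A, a coactivator of mitochondrial biogenesis, at -0.63 (-0.18 without the 4 calves) and the glucose transporter SLC2A4 at -0.46. ACACB, which makes malonyl-CoA at the mitochondrion, was at 0.52, and had a log2 fold change of 0.84 in TR2 vs. CTR (edgeR adjusted p = 0.263).

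Markers of other cell types were set beside NAMPT, since NAMPT is also expressed by leukocytes and other cells; their part in its levels was not tested. All 12 leukocyte markers were paired, none was at 0 in all calves, and 4 were at 0 in some calf. Their summed level, without TMM scaling, ranged from 11.6 to 28.9 CPM (CTR), 11.2 to 18.2 (TR1), 8.75 to 25.0 (TR2) and 8.51 to 21.6 (TR3). It was 11.2 CPM in A2052 and 17.6, 17.5 and 13.8 CPM in A2023, A2099 and A2100, within the range of CTR but for A2052, which was the lowest TR1 calf. Their median of the mean r was -0.03, with LCP1 at -0.39, S100A9 at 0.26 and CSF1R at -0.24. By group, the medians of r differed in sign, at -0.02 (CTR), -0.42 (TR1), -0.28 (TR2) and 0.46 (TR3).

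All 5 fibroblast markers were paired and none was at 0 in any calf. Their median of the mean r was -0.41, with the matrix genes LUM at -0.61, COL3A1 at -0.47 and COL1A2 at -0.41, and 0.0065 without the 4 calves. Their summed level, without TMM scaling, was 443 to 1107 CPM (CTR), 299 to 1221 (TR1), 274 to 595 (TR2) and 357 to 1041 (TR3). A2052, A2023, A2099 and A2100 had 299, 286, 376 and 274 CPM, all below the lowest CTR calf. All 5 were lower in TR2 vs. CTR with an unadjusted p under 0.05 by edgeR, beside 8.34% of all genes in either direction. None was called at an adjusted p of 0.05. These markers, too, were paired only because the study's tables name them, so the count is a description.

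The 10 muscle fibre markers had a median of the mean r of 0.0030, made of medians of opposite sign by group: 0.45 (CTR), -0.63 (TR1), -0.32 (TR2) and 0.46 (TR3). It was 0.14 without the 4 calves. MYH2 was at -0.45, MYH1 at 0.21 and ACTA1 at -0.17 over all calves. Without TMM scaling, the summed level of the 10 markers ranged from 121251 to 174703 CPM in CTR and from 63904 to 167886 in TR1. The ranges were 113125 to 166576 CPM in TR2 and 96918 to 171664 in TR3. The sum was 63904 CPM in A2052, the lowest calf, and 113526, 142058 and 116779 CPM in A2023, A2099 and A2100. MYH1 and MYH2 have close relatives in sequence, so that their reads may be split between copies. The 3 of 5 adipocyte markers paired (1 at 0 in some calf) had a median of -0.07 and summed to 2.74 to 11.9 CPM (CTR), 2.65 to 49.2 (TR1), 1.66 to 9.64 (TR2) and 2.50 to 7.59 (TR3). The 3 erythroid markers (1 at 0 in some calf) had a median of -0.13 and summed to 8.97 to 424 CPM (CTR), 21.5 to 424 (TR1), 5.78 to 405 (TR2) and 20.1 to 278 (TR3). VWF, the only endothelial marker paired, had a mean r of 0.14. With TMM scaling it was 69.5 CPM in A2052, its highest value, against 30.2 to 49.7 CPM in CTR.

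**Figure D5:**
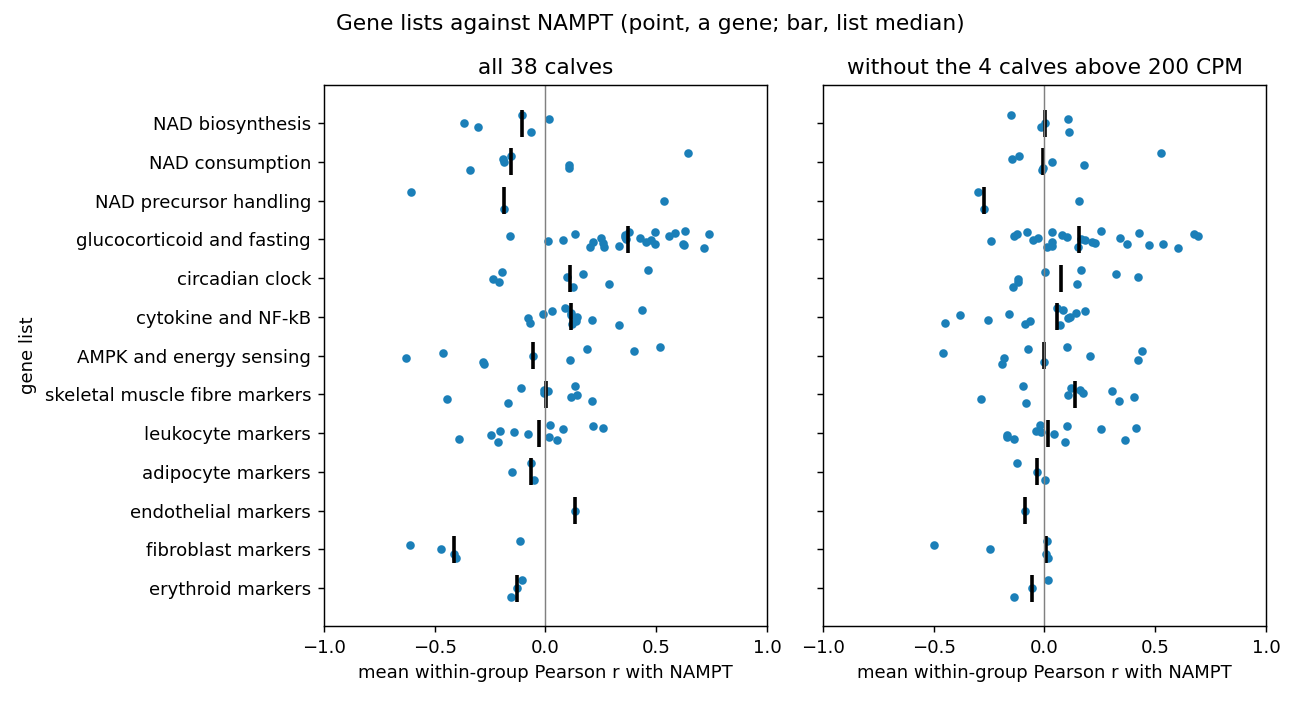
Mean within-group Pearson r with NAMPT of each gene (points) of the 13 lists, with the list median as a bar, over all 38 calves (left) and without the 4 calves above 200 CPM of NAMPT (right). The median of the glucocorticoid and fasting genes is 0.37 on the left and 0.16 on the right, and that of the fibroblast markers -0.41 and 0.0065.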

How the data were processed

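The authors made strand-specific poly-A libraries from LD muscle RNA and sequenced them as 150-base pairs. After adapter and quality trimming, reads were mapped with STAR 2.7.3a to ARS-UCD1.2, and counts were taken per gene of Ensembl release 100. The deposited values are these raw counts of 27607 genes in 38 calves; the strand column kept is not given in the sources used here. All other values were computed here.

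Of 21038 genes with a count, edgeR's filterByExpr kept 12964. Counts were scaled with TMM and tested in edgeR 4.0.16 (quasi-likelihood) on all calves, with dam age, sex and group. Benjamini-Hochberg adjustment ran over all 12964 genes, with a threshold of 0.05, and each SE was taken as the size of the log2 fold change over the square root of F. Correlations used log2 CPM with a prior count of 2. Summed marker levels used CPM of the library total, without TMM. Dixon's gap test was run in each group on the NAD genes other than NAMPT. DESeq2 1.42.0 and the other settings given in the closing section were alternatives. The scripts were tested on simulated data.

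NAMPT, the gene lists and the settings were chosen with earlier results of these data known. The genes given are NAMPT, every NAD gene paired with an ID, the 12 highest and 6 lowest mean r among 2581 genes that have a symbol and average 1 CPM or more, and from each other list the 3 members with the largest mean r in size; HLF and NR3C1 were added after their values were seen. Symbols come from the study's supplementary tables, which pair 2880 of the IDs and include its lists of genes called different from CTR. The gene reference at hand is for ARS-UCD2.0, so no coordinates are given, and no sequence was at hand. R 4.3.3 and Python 3.11.15 were used.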

Additional observations from a re-analysis of the deposited data

Results flagged for a closer look

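In 8 of 60 sets of group values (the 15 NAD genes other than NAMPT, each in 4 groups), Dixon's gap test at 95% set a calf apart. The nominal rate of the test is 1 set in 20, or 3 sets, and it holds for normally distributed values. These are CPM values without a log, some of them skewed as for IDO1. The genes share calves and were paired only through the study's tables. The 8 sets therefore cannot be read as an excess over chance. Of the 8, 4 were values of calves that stand apart in NAMPT. A2052 was set apart among TR1 calves for PARP3 (9.01 CPM, with the nearest calf at 4.62), ART3 (481 CPM, nearest 261) and SLC29A1 (482 CPM, nearest 155). A2023 was set apart among TR2 calves for PARP3 (5.53 CPM, nearest 2.01).

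The other values were IDO1 in the CTR calf A2034 (95.8 CPM, nearest 31.9), SARM1 in the TR2 calf A2084 (2.01 CPM, nearest 1.04), ART1 in the TR3 calf A2102 (38.9 CPM, nearest 21.6) and ART3 in the TR3 calf A2065 (238 CPM, nearest 168). The cause of these values was not tested.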

How the results depend on the processing

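The log2 fold change of NAMPT in TR2 vs. CTR stayed between 1.18 and 1.66 with DESeq2, a robust edgeR fit, library size in place of TMM, all genes kept, only the 2 groups compared, sex dropped, dam age as a factor and neither covariate, and was 0.36 without the 4 calves above 200 CPM, a choice made after seeing the data. In TR3 vs. CTR it lay between -0.32 and 0.17, on either side of 0. The log2 fold change of female vs. male was -0.13 without A2052, and 0.50 at most without another calf. No NAD gene was called at an adjusted p of 0.05 under any setting. Those at an unadjusted p under 0.05 were 3 in TR1 and 2 in TR2 with dam age as a factor, 2 in TR3 without covariates, 8 in TR2 with only the 2 groups compared, and 2 in TR2 without the 4 calves. With a single calf left out they were 3 (without A2052) to 5 in TR1, 3 (without A2023) to 7 in TR2, and 0 (without A2042, A2096, A2020, A2024 or A2087) to 1 in TR3. Of the 12 genes with the highest mean r, 6 were again among the 12 highest with Spearman's rho, 4 with residuals over all calves, 4 without the 2 calves of each group farthest from its median, 3 without the 4 calves, 6 without CTR in the mean and 5 without TR3. Of the 6 lowest, 3 were again the lowest with rho, with library size, without the 4 calves and without TR1, TR2 or TR3 in the mean, 2 without CTR, and 1 each with residuals and without the 2 farthest calves. The clock list's median turned to -0.12 with residuals and -0.077 without the 2 farthest calves. With library size, NAMPT against the TMM factor gave r = 0.46 and against calf number -0.016. Without the 4 calves, the TMM factor gave -0.066 and the share of the 10 most abundant genes -0.12. The cause of these shifts was not tested. No paired analysis was possible because replicate numbers here follow accession order only. With 9 or 10 calves a group, counts of 728 or more on NAMPT leave spread between calves, not depth, as the larger error.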
